A study of Mus musculus with 8 samples.

Results

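Neurons and endocrine cells store peptides in dense-core secretory granules, and 10 genes for the granins, the prohormone-cleaving enzymes and the granule protein Resp18 were followed in mouse brain across 8 arrays. The genes were listed by name. Resp18, the regulated endocrine-specific protein 18, was taken up because earlier results of these arrays showed it higher after trehalose. The granins Chga, Chgb, Scg2 and Scg3, the processing genes Scg5, Pcsk1, Pcsk2 and Cpe, and the peptide precursor Vgf were added as its companions in the granule pathway. Of the 10 genes, 9 had a probe, 1 each, among the 23473 probes of the array, and each of the 9 lay above the detection limit on all 8 arrays. Pcsk2, which encodes prohormone convertase 2, had no probe under its symbol in the annotation used. Its level was not analysed here, and only its promoter sequence was searched.

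Each array held the RNA of 1 male C57Bl/6J mouse, 9 weeks of age. Control mice (n = 2) drank water and were sampled at day 0, and the other mice had received trehalose, a disaccharide of glucose, for 1 day (n = 3) or for 10 days (n = 3). All mice were housed 3 to a cage at 22 °C, fasted for 6 h and perfused with heparin solution. The labels give no genotype beyond the strain and no cage membership for single mice. The only water mice were those of day 0, so trehalose and the time of sampling cannot be told apart. The labels name the tissue as cortex in one place and as the left hemisphere in another. Cortical excitatory neuron markers lay above the detection limit on all 8 arrays for 13 of 13 probes. So did 12 of 12 striatal, 14 of 16 thalamic and 12 of 15 hypothalamic probes. Of all probes, 86.4% to 92.0% lay above the limit on each array, so these counts do not settle which tissue was sampled. Of the 9 pituitary probes 5 (Gh, Pomc, Fshb, Lhb and Pitx1) were above the limit on all 8 arrays, and Prl, the prolactin gene, was above it on none. In such bulk tissue, fewer cells of a type and less RNA per cell cannot be told apart.

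Granins are acidic proteins that aggregate with peptide hormones in the trans-Golgi network and help to form the dense core. Inside the granule, prohormone convertases cut the precursors at pairs of basic residues, carboxypeptidase E trims the exposed basic ends, and an amidating enzyme and glutaminyl cyclase finish many peptides. In the brain these genes are expressed in peptidergic neurons and, for several of them, in most neurons, and some granin promoters carry a cAMP response element, the site bound by the activity-regulated factor CREB.

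Promoter sequence was set beside the array values for Resp18 and Scg2, whose group means differed most, and for Chgb, Pcsk1 and Chga, which show a whole cAMP response element or its core. The RefSeq table of promoters (build GRCm38.p6) held 8 of the 10 genes, among them Pcsk2 but not Cpe or Vgf. The 250 bases before each start were searched on both strands for the cAMP response element TGACGTCA and for its core TGACG, which lies within TGACGTCA. They were also searched for the TATA letters TATAAA and for CACGTG, 1 form of the E-box. The first 2 sequences are the whole 250 bases before the start of Resp18, chr1:75278416-75278665 (- strand), and of Scg2, chr1:79440027-79440276 (- strand), and the next 3 are short stretches of Chgb, chr2:132781559-132781588 (+ strand), Pcsk1, chr13:75089768-75089797 (+ strand), and Chga, chr12:102554886-102554915 (+ strand). Each is written 5′ to 3′ along the gene's own strand, and capitals mark the cAMP response element or, in Chga, its core.
Resp18: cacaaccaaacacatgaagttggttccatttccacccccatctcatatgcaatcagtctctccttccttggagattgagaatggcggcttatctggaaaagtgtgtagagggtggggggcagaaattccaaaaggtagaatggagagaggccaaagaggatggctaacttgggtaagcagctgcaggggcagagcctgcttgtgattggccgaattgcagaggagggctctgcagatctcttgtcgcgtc
Scg2: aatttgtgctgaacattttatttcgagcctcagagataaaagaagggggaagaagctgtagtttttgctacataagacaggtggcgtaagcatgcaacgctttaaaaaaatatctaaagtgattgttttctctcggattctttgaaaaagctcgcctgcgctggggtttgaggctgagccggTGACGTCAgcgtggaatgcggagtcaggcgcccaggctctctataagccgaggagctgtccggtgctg
Chgb: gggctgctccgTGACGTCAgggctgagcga
Pcsk1: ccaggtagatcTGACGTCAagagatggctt
Chga: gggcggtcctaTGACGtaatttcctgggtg
TGACGTCA was found in 3 of the 8 genes (Chgb, Scg2 and Pcsk1), against 1.55% of the 32851 promoter windows of the same length in the table. Its core TGACG was found in 7 of the 8, all but Resp18, against 17.8% of windows. TATAAA and CACGTG were found in 0 of the 8, against 12.4% and 6.02% of windows, and other forms of the E-box were not searched. Such matches describe the letters of these windows only.

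Among the 9 measured members, the mean levels of Resp18 and Scg2 differed most between control and trehalose, and those of the remaining 7 differed less. All levels are log2 intensities after background correction and quantile normalization, and all differences are differences of mean log2 intensity. Resp18 was chosen from these same comparisons, so its values are a description with no test. In the control mice its log2 intensity was 10.40 and 10.67, after 1 day of trehalose it was 10.90, 11.09 and 11.05, and after 10 days it was 10.85, 10.78 and 10.84. Both control mice lay below all 6 trehalose mice, and the 3 mice of 10 days lay below the 3 mice of 1 day. The means were 10.53 ± 0.19 (SD, n = 2), 11.01 ± 0.10 (SD, n = 3) and 10.82 ± 0.04 (SD, n = 3). The difference from control was 0.48 at 1 day, which is 1.39-fold, 0.29 at 10 days, which is 1.22-fold, and 0.38 for both times together. The 2 control mice were apart by more than the mice within either trehalose group. Without the lower of the 2 (replicate 1) the differences were 0.34 at 1 day and 0.15 at 10 days, and without the other (replicate 2) they were 0.61 and 0.43.

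**Figure D1:**
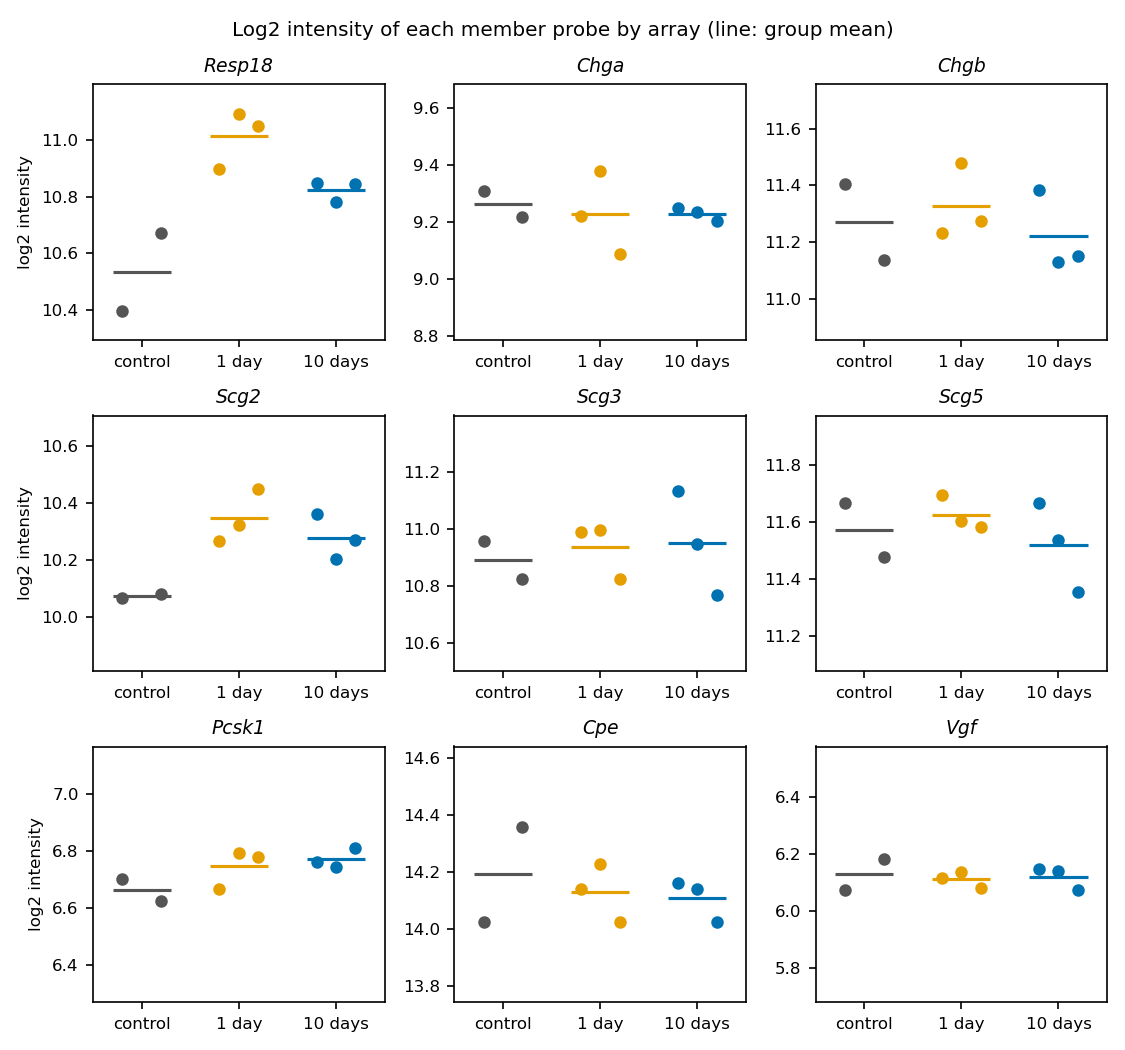
Log2 intensity (vertical axes, all panels spanning the same number of log2 units) of the 9 measured members on the 8 arrays, as points by group with a line at each group mean. Resp18 and Scg2 were the 2 members whose control mice lay below all 6 trehalose mice.

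Among the granins, Scg2 (secretogranin II, the precursor of secretoneurin) had log2 intensities of 10.06 and 10.08 in the control mice, 10.27, 10.32 and 10.45 after 1 day and 10.36, 10.20 and 10.27 after 10 days. Both control mice lay below all 6 trehalose mice, while the mice of 1 day and of 10 days overlapped. Scg2 was higher than in control by 0.28 at 1 day (SE 0.07, 95% interval 0.12 to 0.43), or 1.21-fold, and by 0.21 at 10 days (95% interval 0.05 to 0.36), or 1.15-fold. Neither difference passed limma's test: the p-value was 0.0032 at 1 day and 0.0142 at 10 days, and the Benjamini-Hochberg adjusted p over all 21583 tested probes was 1.0 at both times. With the mice of both times together the difference was 0.24 (95% interval 0.11 to 0.38), and the adjusted p was again 1.0. Scg2 was thus higher in 6 of 6 trehalose mice without passing the correction. With the scanner's local background subtracted, the Scg2 difference was 0.92 at 1 day and 1.06 at 10 days, again without a call.

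The other 3 granins showed no such separation. Chga (chromogranin A, the founding granin) had log2 intensities of 9.31 and 9.22 in control, 9.22, 9.38 and 9.09 after 1 day and 9.25, 9.24 and 9.20 after 10 days. The 3 groups overlapped, and the differences from control were -0.03 (95% interval -0.21 to 0.15) at 1 day and -0.03 at 10 days. Chgb (chromogranin B) had log2 intensities of 11.40 and 11.14 in control, 11.23, 11.48 and 11.27 after 1 day and 11.38, 11.13 and 11.15 after 10 days. Here too the groups overlapped: the differences from control were 0.06 (95% interval -0.20 to 0.32) and -0.05 (95% interval -0.31 to 0.21). Scg3 (secretogranin III, which binds chromogranin A to cholesterol-rich granule membrane) had log2 intensities of 10.96 and 10.83 in control, 10.99, 11.00 and 10.82 after 1 day and 11.13, 10.95 and 10.77 after 10 days. The widest spread of Scg3 was within the mice of 10 days, and the differences from control were 0.05 (95% interval -0.20 to 0.29) and 0.06 (95% interval -0.19 to 0.30). These intervals do not show that the levels were equal.

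The processing genes differed little as well. Pcsk1 (prohormone convertase 1/3, the early cleaving enzyme) had log2 intensities of 6.70 and 6.62 in control, 6.67, 6.79 and 6.78 after 1 day and 6.76, 6.75 and 6.81 after 10 days. The mice of 10 days lay just above both control mice, with a difference of 0.11 (95% interval -0.01 to 0.23), and at 1 day the groups overlapped, with a difference of 0.08 (95% interval -0.04 to 0.20). The Pcsk1 spot was dim, at 2.38 to 3.29 times the mean of the blank spots, and the offset used in the background correction compresses changes of dim probes. Scg5 (the 7B2 protein, chaperone of prohormone convertase 2) had log2 intensities of 11.67 and 11.48 in control, 11.70, 11.60 and 11.58 after 1 day and 11.67, 11.54 and 11.36 after 10 days. Its groups overlapped, and the differences were 0.06 (95% interval -0.16 to 0.28) and -0.05 (95% interval -0.27 to 0.17).

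Cpe (carboxypeptidase E, which removes the basic residues left by the convertases) had log2 intensities of 14.02 and 14.36 in control, 14.14, 14.23 and 14.02 after 1 day and 14.16, 14.14 and 14.02 after 10 days. The groups overlapped, and control replicate 2 was the highest of the 8 mice after normalization. The differences from control were -0.06 (95% interval -0.30 to 0.18) and -0.08 (95% interval -0.32 to 0.16). Cpe ranked between 12 and 17 from the brightest probe on every array, where quantile normalization gives arrays of equal rank the same value. Its unnormalized spot medians ran from 16692 to 19969. The highest was that of replicate 2 of 1 day, against 18831 in control replicate 2. Vgf (the precursor of several neuropeptides, induced by nerve growth factor) had log2 intensities of 6.07 and 6.18 in control, 6.12, 6.14 and 6.08 after 1 day and 6.15, 6.14 and 6.07 after 10 days. The Vgf spot was only 1.44 to 1.63 times the blank mean, so that a change of the gene would be strongly compressed, and the differences were -0.02 (95% interval -0.12 to 0.09) and -0.01.

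Of the 8 members that entered the test (all measured members but Resp18), 0 passed an adjusted p of 0.05 in any of the 4 comparisons, and the same holds for 0% of all 21583 tested probes. At an unadjusted p under 0.05, Scg2 was the 1 member of the 8 at 1 day, at 10 days and at both times together, against 3.65%, 2% and 2.63% of all probes, and 0 of 8 differed between the times, against 3.5% of all probes. The groups did not overlap, with trehalose higher, for 1 of 8 members at 1 day (Scg2), against 8.97% of all probes, and for 2 of 8 at 10 days (Scg2 and Pcsk1), against 6.46%. Between 10 days and 1 day 0 of 8 members did not overlap, against 8.39% of all probes in either direction. For both times together the count was 1 of 8 higher (Scg2), against 2.75%. With so few members, these counts give no result about the set. Over the 8 members without Resp18 the median difference was 0.051 at 1 day, with 5 higher and 3 lower, and -0.021 at 10 days, with 3 higher and 5 lower, and the median over all tested probes was -0.00030 and -0.0017. The comparisons with control share the same 2 control mice. With the local background subtracted, the differences from control turned to -0.89 for Scg5 at 1 day, to -0.098 for Pcsk1 at 10 days and to 0.15 and 0.27 for Cpe, all without a call.

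**Figure D2:**
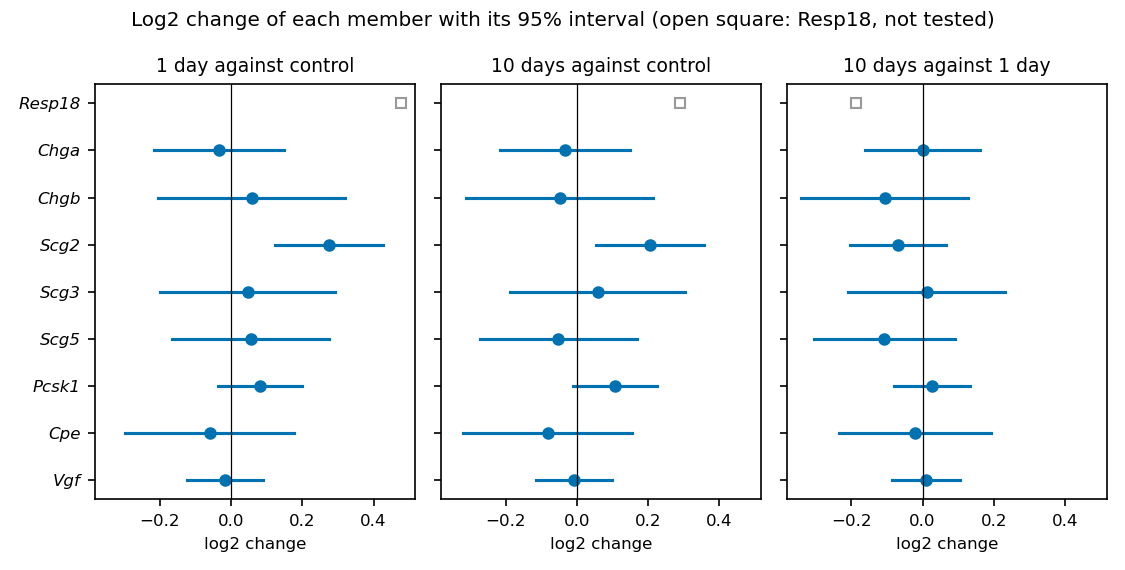
Difference in mean log2 intensity (horizontal axes) of each member in the comparisons, with filled points and bars for the estimate and 95% interval of the 8 tested members and an open square without a bar for Resp18, which was chosen from these comparisons. Scg2 was the 1 tested member whose interval lay above 0 against control at 1 day (0.28) and at 10 days (0.21).

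Between 1 day and 10 days the interval of every tested member included 0. The Resp18 difference was -0.19, with no test. Scg2 differed by -0.07 (95% interval -0.20 to 0.07), Chgb by -0.11, Scg5 by -0.11 (95% interval -0.30 to 0.09), Pcsk1 by 0.03, Cpe by -0.02, Scg3 by 0.01 and Vgf by 0.01, and Chga was at 0.00.

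Correlations between members across the 8 mice did not pass after adjustment. Of the 36 pairs of members, 24 correlated positively and 12 negatively, with a median Pearson r of 0.117, and 0 pairs passed after Benjamini-Hochberg adjustment over the 36. Resp18 and Scg2 had r = 0.86 and Spearman's rho = 0.83, given as a description because the group differences of Resp18 chose it, and without the 2 mice farthest from the median Resp18 level r was 0.93. With the group means removed r was 0.42 (exact permutation p = 0.25, two-sided). Cpe and Vgf had r = 0.95 (exact permutation p = 0.0017, adjusted 0.0607), rho = 0.87 (exact permutation p = 0.0085), 0.90 without the 2 farthest mice and 0.98 within the groups (exact permutation p = 0.0139, the smallest it can give). With the local background subtracted r of Cpe and Vgf was -0.71. With median scaling in place of quantile normalization it was 0.78, and 0.44 without the 2 farthest mice. The Cpe probe lay among the brightest ranks and the Vgf probe was dim, so this r depends on the processing. Scg3 and Scg5 had r = 0.79 (exact permutation p = 0.0182, adjusted 0.218), and 0.91 within the groups (exact permutation p = 0.0556).

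**Figure D3:**
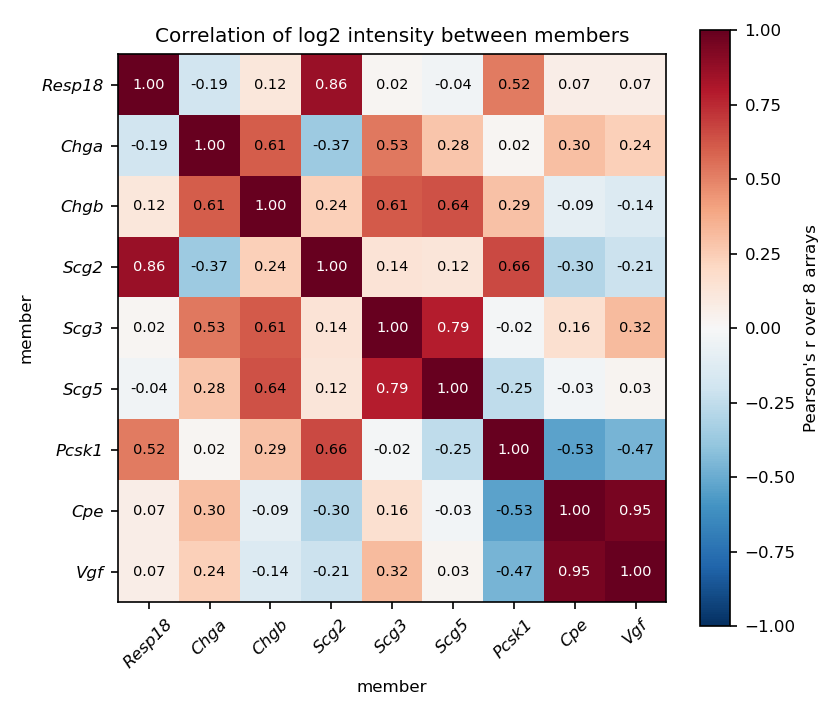
Pearson r between the log2 intensities of each pair of the 9 measured members over the 8 arrays, as a coloured grid. The highest r were those of Cpe with Vgf (0.95), Resp18 with Scg2 (0.86, a description only) and Scg3 with Scg5 (0.79).

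A number from 1 to 8 opens the description of each sample, and its meaning was not given in the sources used here. The first principal component over all tested probes, with 25.3% of the variance, followed it. Scg5 fell along this number, with r = -0.88 (exact permutation p = 0.0033, adjusted 0.0295 over the 9 members) and rho = -0.90 (exact permutation p = 0.0046, adjusted 0.0326). Scg3 fell along it as well, with r = -0.87 (exact permutation p = 0.0066, adjusted 0.0297) and rho = -0.88 (exact permutation p = 0.0072, adjusted 0.0326). Within the groups r was -0.90 for Scg5 (exact permutation p = 0.0278) and -0.92 for Scg3 (exact permutation p = 0.0556), and without the 2 mice farthest from the median number it was -0.76 and -0.92. Of all tested probes, 1.13% had a relation at least as strong as that of Scg5 and 1.35% at least as strong as that of Scg3. The other 7 members did not pass, with r = 0.15 for Resp18 and 0.09 for Scg2. With the local background subtracted 0 of the 9 relations passed.

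**Figure D4:**
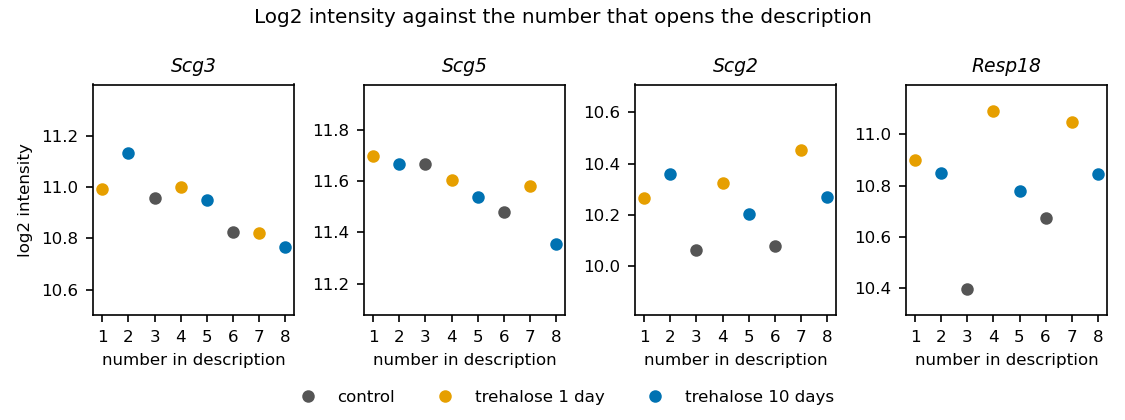
Log2 intensity (vertical axes) of Scg3, Scg5, Scg2 and Resp18 against the number from 1 to 8 that opens each sample's description (horizontal axes), with points coloured by group. Scg3 (r = -0.87) and Scg5 (r = -0.88) fall along the number, and Scg2 (r = 0.09) and Resp18 (r = 0.15) do not.

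The probes whose levels followed Resp18 most closely over the 8 arrays were those of Psmd12, a lid subunit of the proteasome (r = 0.99), Zfpm2, a transcription cofactor of GATA factors (r = 0.97), Gdi2, a regulator of Rab GTPases (r = 0.96), Stk39, a kinase that acts on ion cotransporters (r = 0.95), and P3h1, a collagen prolyl hydroxylase (r = 0.95). Their log2 intensities ranged over 0.35, 0.30, 0.32, 0.26 and 0.086 in that order, against 0.69 for Resp18, so P3h1 hardly varied. Scg2, at r = 0.86, was the closest of the other members, and 84 probes (0.389% of those tested) were at least as like. Resp18 was chosen for its group difference, so probes that separate control from trehalose correlate with it. These ranks are therefore a description only. With the group means removed r of Resp18 with Scg2 was 0.42.

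Genes of the wider pathway, from lists drawn up for this tissue, showed 0 calls in either direction in each list and comparison. Of 16 tested probes for other granins and processing enzymes, 12 were higher at 1 day and 4 lower, and 11 were higher at 10 days and 5 lower, with medians of 0.018 and 0.025. Qpct, glutaminyl cyclase, which forms the pyroglutamate end of many peptides, had log2 intensities of 7.79 and 7.90 in control, 8.11, 8.04 and 8.02 after 1 day and 8.10, 7.99 and 7.99 after 10 days. Its control mice lay below all 6 trehalose mice, as for 2.75% of all tested probes. The differences of 0.21 (SE 0.06) and 0.18 did not pass (limma, adjusted p = 1.0). Cyb561 of the same list had 8.93 and 8.97 in control, 8.79, 8.82 and 8.59 after 1 day and 8.97, 8.70 and 8.83 after 10 days. Its control mice lay above the 3 mice of 1 day and overlapped those of 10 days. At 1 day such a separation, with trehalose lower, was seen for 1 of the 16 tested probes of this list. Of all tested probes, 8.97% separated with trehalose higher at 1 day, and the share with trehalose lower is not given here. The convertase inhibitor Pcsk1n was at -0.05 and -0.04, the amidating enzyme Pam at 0.04 and -0.04 and the convertase Furin at 0.04 and -0.02.

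Of 23 probes for granule assembly and release, 7 were higher and 16 lower at 1 day, and 12 higher and 11 lower at 10 days, with medians of -0.018 and 0.00029. For 3 of the 23, Ptprn among them, both control mice lay above the 3 mice of 1 day. The share of all probes in this direction is not given here. Ptprn, a membrane protein of dense-core granules, differed by -0.23 and -0.25. Its control mice, at 10.39 and 10.39, lay above the 3 mice of 1 day, at 10.35, 10.20 and 9.93, and overlapped those of 10 days. Its relative Ptprn2 differed by -0.05 and -0.01, and the priming factor Cadps by 0.05 and -0.01. Its relative Cadps2 differed by -0.01 and -0.05, Syt4, a granule synaptotagmin, by 0.03 and 0.09, and Hid1, which acts in granule sorting, by 0.06 and 0.09. Of 19 probes for peptide cargo, 7 were higher and 12 lower at 1 day, and 14 higher and 5 lower at 10 days, with medians of -0.095 and 0.028. Npy differed by -0.12 and -0.07, Sst by -0.17 and -0.10, and Cck by -0.12 and 0.00. Penk, the enkephalin precursor of striatal neurons, differed by -0.50 (SE 0.44) and -0.19, and was at 10.67 in replicate 2 of 1 day and between 11.48 and 12.40 on the other 7 arrays.

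Marker lists of brain regions were summed beside Resp18 and Scg2, and the thalamic sum was the one of the regional sums given here that separated control from trehalose in their direction. The summed linear intensity of the thalamic list ran from 4011 to 4493 in control, 4646 to 5896 at 1 day and 4774 to 5110 at 10 days, so that control lay below both trehalose groups, as for Resp18 and Scg2. In that list 13 of 15 tested probes were higher at 1 day and 13 at 10 days, and Tcf7l2 was not above the limit on any array. For 4 of the 15 both control mice lay below all 6 trehalose mice, against 2.75% of all tested probes. With 15 probes this count gives no result about the list. Slc17a6 was among them. Slc17a6, the vesicular glutamate transporter of thalamus and hypothalamus, had log2 intensities of 8.91 and 9.02 in control, 9.33, 9.74 and 9.38 after 1 day and 9.37, 9.23 and 9.34 after 10 days. The hypothalamic list summed to 2835 to 3018 in control, 2871 to 4332 at 1 day and 2991 to 3200 at 10 days, with 11 of 14 tested probes higher at 1 day and 8 at 10 days. Of that list Avp, the vasopressin precursor, was at 9.10 and 9.29 in control, 9.97, 10.34 and 9.49 after 1 day and 9.85, 9.63 and 9.49 after 10 days. Both Avp control values lay below all 6 trehalose values, as for 1 of the 14 tested probes of that list and 2.75% of all tested probes. Oxt, the oxytocin precursor, differed by 0.37 and 0.05.

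The cortical excitatory list ran the other way. It summed to 5821 to 5855 in control, 5357 to 5657 at 1 day and 5241 to 5349 at 10 days, and 11 of 13 probes were lower at each time. The striatal list summed to 8828 to 12515 in control, 4686 to 12359 at 1 day and 9229 to 9999 at 10 days, and the pituitary list to 765 to 803, 776 to 867 and 787 to 812. Of 8 choroid plexus and ependyma probes, 7 were higher than control at 1 day and 8 at 10 days. Their sum was 26037 to 30464 in control, 24939 to 33807 at 1 day and 30473 to 30526 at 10 days. It overlapped control at 1 day and lay only just above the higher control mouse at 10 days. Ttr, the brightest probe of the list, was at 14.85 in control replicate 2 and in all mice of 10 days. Quantile normalization gives equal ranks the same value there. In that list both control mice lay below all 6 trehalose mice for 2 of 8 probes, against 2.75% of all tested probes. They were Foxj1, the ciliogenesis factor of ependyma, and Aqp1, a water channel of choroid plexus. With 8 probes this count gives no result about the list. Of 10 interneuron probes, 9 were lower at 1 day and 7 at 10 days, with overlapping sums. Of these lists, 0 probes passed limma's adjusted p, and the part of regional or cell type makeup in the Resp18 and Scg2 differences was not tested.

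**Figure D5:**
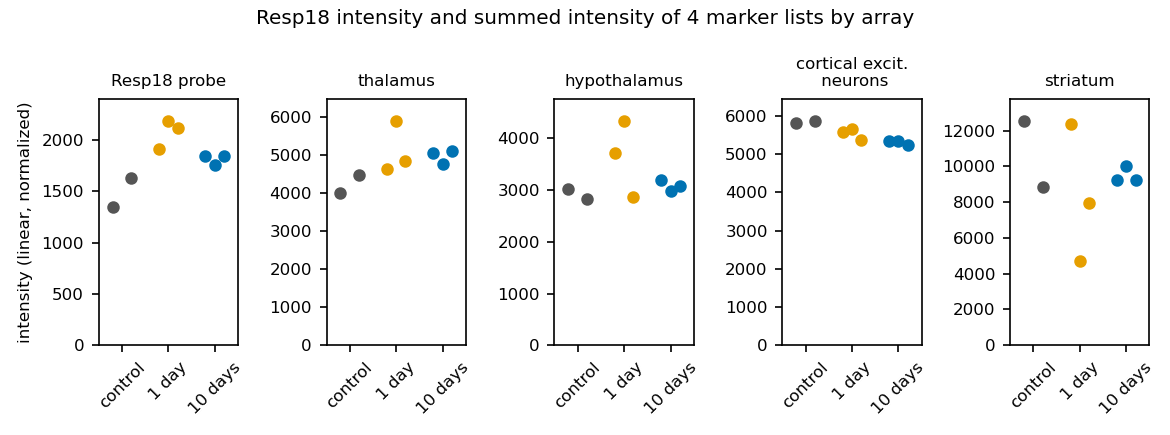
Linear normalized intensity (vertical axes, from 0) of the Resp18 probe and summed over the thalamic, hypothalamic, cortical excitatory and striatal lists, as 1 point per array by group. The thalamic sum was lower in both control mice (4011 to 4493) than in all trehalose mice, and the cortical excitatory sum was higher in both control mice (5821 to 5855) than in all trehalose mice.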

How the data were processed

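RNA of 8 mouse brain samples was measured on 1-colour Cy5 arrays, 1 array per mouse. The scanner files that the authors deposited hold, per the file headers, a spot intensity (median of pixels, 3 gains joined) and a local background intensity; the authors' processed table, also deposited, gives 1 intensity per probe on a linear scale with a column median of 25. Log2 values were computed here with limma 3.58.1 in R 4.3.3 from the deposited intensities: normexp background correction with an offset of 50, removal of 10 probe spots with a failed flag, quantile normalization and averaging per probe. The local background rose and fell with its own spot (r of logs 0.936 to 0.983) and was left unsubtracted. Symbols came from the platform annotation, in which 20690 probes had 1 symbol, 2783 none and 0 several.

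A probe was tested where it exceeded the blank spots' mean plus 2 SD on at least 2 arrays (21583 probes; 86.4% to 92.0% of probes per array). 1 fit held the 3 groups with 5 residual degrees of freedom; moderated tests were adjusted by Benjamini-Hochberg at 0.05. Precision is set by the number of arrays, and the median 95% interval extended 0.130 either way against control. The p-values measure the spread between these mice, 1 sample each. Correlations used exact permutation over the arrays. The fit was tested on simulated data. Members and lists were chosen with earlier results of these data known. Named were all members, 5 probes nearest to Resp18, and list genes set by name. Slc17a6, Foxj1, Aqp1, Egr1, Egr2 and Cyb561 were picked out with their values seen. No slide or scan date was known, so no such batch could be tested.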

Additional observations from a re-analysis of the deposited data

How the results depend on the processing

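No tested member passed an adjusted p of 0.05 under any alternative, and the smallest adjusted p was 0.684 (Scg2 at 1 day). Scg2 kept its direction against control under every alternative. Resp18 did as well, but it was chosen for that direction in these same arrays, so this is a description only. Over all probes, subtracting the blank mean and using trend and robust variances each called 1 probe (Il1rl2) at 10 days against control and 1 (Il1rl2) at 10 days against 1 day, and leaving out each mouse in turn gave 0 to 2 in the 3 comparisons with control (2, Ifitm3 and Sult4a1, without control replicate 1); these genes were named after their values were seen. Relations to the description number fell from 2 to 0 with local background, and relations between members went from 0 to 1 with median scaling; that pair is Resp18 with Scg2, which rests on the group difference that chose Resp18 (r within groups 0.34, exact permutation p = 0.18) and is no result. Small differences changed sign; the cause was not tested. With local background the values were, for 1 day against control Chga 0.025, Chgb -0.022, Scg5 -0.89, Cpe 0.15, and for 10 days against control Pcsk1 -0.098, Cpe 0.27, and for 10 days against 1 day Chga -0.76, Scg2 0.14, Scg3 -0.087, Pcsk1 -0.14, Cpe 0.11, and for either time against control Chgb -0.43, Scg5 -0.94, Pcsk1 -0.027, Cpe 0.21. With median scaling the values were, for 1 day against control Cpe 0.041, and for 10 days against 1 day Chga -0.017, Scg3 -0.020, and for either time against control Cpe 0.000715. With cyclic loess the values were, for 1 day against control Cpe 0.00748, and for 10 days against 1 day Chga -0.011, Scg3 -0.00420, and for either time against control Chgb -0.00402. In the authors' table the values were, for 10 days against control Vgf 0.021, and for either time against control Scg5 -0.00643. With array weights the values were, for 10 days against 1 day Chga -0.00657, and for either time against control Chgb -0.00442. With the replicate number as a block, which called 0 probes, the values were, for 1 day against control Chga 0.00845, Vgf 0.00168, and for 10 days against control Chga 0.00853, Scg5 0.000854, Vgf 0.012, and for either time against control Chga 0.00849, Vgf 0.00659. Deviations of same-numbered mice correlated by -0.025 to 0.263, over 0.1 in 6 of 7 pairs, against -0.315 to 0.213 for other pairs, 10 of 14 of them below 0, and 7 of 8 mice correlated best with their own number. The deviations of the 2 control mice mirror each other. A positive correlation with 1 of them therefore makes that with the other negative, and these counts are partly fixed in advance. As 1 pair fell short, the numbers were not taken as pairs; the description number rises with the replicate number. For 1 day against control, leaving out each mouse gave Chga -0.11 to 0.037, Chgb -0.074 to 0.19, Scg3 -0.020 to 0.11, Scg5 -0.040 to 0.15, Cpe -0.23 to 0.11, Vgf -0.073 to 0.037. For 10 days against control, leaving out each mouse gave Chga -0.080 to 0.013, Chgb -0.18 to 0.084, Scg3 -0.033 to 0.15, Scg5 -0.15 to 0.043, Cpe -0.25 to 0.085, Vgf -0.063 to 0.047. For 10 days against 1 day, leaving out each mouse gave Chga -0.070 to 0.075, Scg3 -0.079 to 0.10, Pcsk1 -0.014 to 0.050, Cpe -0.075 to 0.027, Vgf -0.00589 to 0.033. For either time against control, leaving out each mouse gave Chga -0.080 to 0.013, Chgb -0.13 to 0.14, Scg3 -0.014 to 0.12, Scg5 -0.093 to 0.097, Cpe -0.24 to 0.096, Vgf -0.068 to 0.042. The dim Pcsk1 and Vgf probes and the 2 control mice limit what could be seen.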

Other observations

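Immediate early genes, which neurons switch on with activity, were given a list of their own. Of 13 tested probes, 8 were higher and 5 lower at 1 day and at 10 days, and 0 passed limma's adjusted threshold. Without adjustment, 2 of the 13 had a p under 0.05 at each time, against 3.65% of all probes at 1 day and 2% at 10 days. They were Egr1 and Egr2, named after their values were seen. Egr1, a zinc finger transcription factor, had log2 intensities of 10.81 and 10.43 in control, 10.73, 10.96 and 11.03 after 1 day and 10.92, 10.91 and 11.01 after 10 days. Control and 1 day overlapped for Egr1, and 10 days lay above both control mice. Egr2, its relative, had 6.98 and 6.94 in control, 7.03, 7.09 and 7.08 after 1 day and 7.14, 7.12 and 7.09 after 10 days. Its control mice lay below all 6 trehalose mice, as for 1 of the 13 probes of this list and 2.75% of all tested probes. Bdnf, a neurotrophin, differed by 0.26 and 0.24, Fos by 0.23 and 0.09 and Nptx2, a synaptic pentraxin, by 0.01 and 0.04, and the groups of Bdnf overlapped.

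Striatal marker probes were lower than control in 12 of 12 at 1 day, with a median of -0.29, and in 8 of 12 at 10 days, with a median of -0.09, with 0 passing limma's adjusted p. The summed level of this list was lowest in replicate 2 of 1 day (4686). Replicate 3 of 1 day was at 7967, and replicate 1, at 12359, lay within the control range of 8828 to 12515. The lower striatal level at 1 day was thus not shared by all mice of that group. Replicate 2 of 1 day also had the highest thalamic (5896), hypothalamic (4332) and choroid plexus and ependyma (33807) sums of all arrays. The part of this array in the differences at 1 day was not tested.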
